A study of Mus musculus with 6 samples.

Results

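Transcripts of 35 genes for purine, pyrimidine and polyamine synthesis were followed in mouse CD4+ T cells during activation, with and without the chemokine CCL19. The 35 genes were chosen by symbol, and all 35 were found among the 24470 genes of the deposited count table. Of these, 34 passed the filter on low counts, as did 11666 genes in all, and Tk1 did not. The cells were naive CD4+ T cells, helper T cells that have not met antigen, isolated by magnetic beads from male C57BL/6J mice, from the spleen and the lymph nodes that drain the skin. All 6 samples received the same stimulus, plate-coated antibodies for 6 h, against CD3 (which carries the T cell receptor signal) and CD28 (a costimulatory receptor). In 3 samples recombinant mouse CCL19, a ligand of the chemokine receptor CCR7, was present, and in the other 3, labelled NoCKN and called no-CCL19 here, it was not. The question was how the chemokine alters transcripts in T cells that are being activated. No unstimulated sample was analysed here, so the effect of the antibodies themselves was not measured. Ages are not given in the labels. Nothing in the labels ties the replicates to separate mice or cultures. The p-values then measure only the spread among these samples, which may be technical.

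Cells make purine and pyrimidine nucleotides for RNA, DNA and cofactors either from small precursors or by salvage of bases and nucleosides. Synthesis from precursors and the salvage of bases draw on phosphoribosyl pyrophosphate (PRPP). Resting T cells rely largely on salvage, and activated T cells switch on synthesis from precursors before they divide. Polyamines (putrescine, spermidine and spermine) are small cations made from ornithine and methionine-derived carbon, and they bind nucleic acids and support translation. Ornithine decarboxylase, which starts that pathway, is held in check by antizymes, which in turn are bound by antizyme inhibitor. MYC is a textbook regulator of many genes in all 3 branches.

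The libraries held between 16978736 and 27429898 counts, and the 35 genes took between 0.375% and 0.506% of them. The CD4 T cell markers Cd4, Cd3e, Cd3d, Cd3g, Tcf7 and Lef1 were present in every library. Cd4 itself ranged from 542 to 592 CPM with CCL19 and from 603 to 695 CPM without (CPM, the count scaled to library size, here with edgeR's TMM factors), and Cd3e from 315 to 344 and from 334 to 353 CPM. Tcf7 and Lef1, transcription factors of naive T cells, were lower with CCL19 by DESeq2 (log2 fold change -0.35 and -0.28, adjusted p = 0.0148 and 0.0328) and not called by edgeR (adjusted p = 0.0722 and 0.0922). Their part in the results was not tested. The 6 B cell markers summed to 16.5 to 22.6 CPM with CCL19 and 21.2 to 25.0 CPM without. The 9 myeloid and dendritic markers summed to 8.84 to 15.4 and 9.50 to 16.04 CPM, the 4 NK markers to 10.4 to 12.6 and 9.47 to 12.1 CPM, and the CD8 markers to 12.4 to 17.2 and 14.56 to 14.98 CPM. The 4 erythroid and stromal markers summed to 201 to 254 and 245 to 289.9 CPM, of which Pecam1, also found on naive T cells, made up 189.7 to 242 and 232 to 276 CPM. No defining marker was at 0 in all libraries. In bulk samples, fewer cells of a type and less RNA per cell cannot be told apart.

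Promoter windows around the annotated start were searched for CACGTG, the E-box hexamer that MYC and its partner MAX bind, since many of these genes are textbook MYC targets. The hexamer reads the same on both strands. RefSeq windows of build GRCm38.p6, each 300 bases long and mostly upstream of the start, were matched for 31 of the 35 genes, not for Pfas, Dhodh, Azin1 or Srm. At least 1 window held the hexamer for 6 of these 31 genes (19.4%), against 8.09% of the 27025 genes with a window, and the hexamer stood in 7 of the 44 windows of these genes (15.9%), against 7.15% of all 32851 windows. A match is a description of letters, not a bound site. Each window held 250 bases before the start and 50 after it, so a hexamer further away would be missed. A gene without a match, such as Cad or Odc1, may therefore hold one nearby. The genes compared were all those with a window, not matched for expression or GC content. The 6 genes were Sms, Atic, Impdh2, Nme1, Paics and Nt5c2. The bases before the start are shown for the first 5, in the order of their edgeR p, 5′ to 3′ along the gene, with the hexamer in capitals. They let a reader see how differently the hexamer is placed from gene to gene. Nt5c2, with a match in 1 of 7 windows, is not shown, a choice made after its values were seen. For Sms 1 of 2 windows held the hexamer, and the start of that window lies upstream of the deposited span of the gene.
Sms, chrX:157492288-157492537, minus strand: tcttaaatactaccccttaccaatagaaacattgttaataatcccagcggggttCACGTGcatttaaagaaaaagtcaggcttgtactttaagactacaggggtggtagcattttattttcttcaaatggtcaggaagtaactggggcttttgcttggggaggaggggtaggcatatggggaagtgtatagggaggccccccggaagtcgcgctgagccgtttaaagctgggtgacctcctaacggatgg
Atic, chr1:71556906-71557155, plus strand: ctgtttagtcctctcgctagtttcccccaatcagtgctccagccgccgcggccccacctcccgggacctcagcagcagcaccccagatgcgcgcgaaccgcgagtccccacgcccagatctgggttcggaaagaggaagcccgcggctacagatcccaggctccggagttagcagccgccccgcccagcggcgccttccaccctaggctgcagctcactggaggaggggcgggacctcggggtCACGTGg
Impdh2, chr9:108560186-108560435, plus strand: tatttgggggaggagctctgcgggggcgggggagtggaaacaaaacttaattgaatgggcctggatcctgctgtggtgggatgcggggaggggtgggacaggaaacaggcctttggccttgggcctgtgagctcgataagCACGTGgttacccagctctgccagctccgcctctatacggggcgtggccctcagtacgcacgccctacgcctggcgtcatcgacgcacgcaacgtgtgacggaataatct
Nme1, chr11:93968273-93968522, minus strand: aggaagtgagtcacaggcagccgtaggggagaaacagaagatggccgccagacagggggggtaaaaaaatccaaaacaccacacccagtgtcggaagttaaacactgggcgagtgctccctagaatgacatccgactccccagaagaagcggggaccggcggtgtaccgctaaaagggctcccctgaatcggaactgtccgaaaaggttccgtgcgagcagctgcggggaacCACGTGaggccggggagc
Paics, chr5:76951052-76951301, plus strand: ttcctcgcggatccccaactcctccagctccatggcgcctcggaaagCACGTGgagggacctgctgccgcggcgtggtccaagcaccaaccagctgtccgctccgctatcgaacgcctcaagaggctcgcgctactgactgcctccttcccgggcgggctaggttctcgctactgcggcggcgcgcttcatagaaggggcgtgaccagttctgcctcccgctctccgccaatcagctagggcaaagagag
Counted from the start, with the last base before it as -1, the hexamer began at -196 in Sms, -7 in Atic, -110 in Impdh2, -18 in Nme1 and -203 in Paics. A further Nme1 window also held it. The Nme1 stretch shown lies almost wholly within the deposited span of Nme1 itself (93958925 to 93968521). It is thus upstream of the start of that window, not of the deposited gene. The Paics stretch lies within the deposited span of Ppat, which is transcribed the other way.

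With CCL19, most of these genes stood higher by a small amount, and none passed the main test. The median log2 fold change of the 34 tested genes was 0.24, against -7e-04 for all 11666 genes tested, and 28 of the 34 lay above 0, as did 49.8% of all tested genes. edgeR's quasi-likelihood test with Benjamini-Hochberg adjustment called 0 of the 34 higher and 0 lower at a threshold of 0.05 (0% of all tested genes in either direction). At an unadjusted p under 0.05, edgeR had 23 higher and 2 lower, against 14.5% and 13% of all tested genes. limma-voom called 0. DESeq2, a second tool, called 14 of the 33 genes to which it gave an adjusted p higher and 0 lower, against 7.14% and 6.12% of all 9121 genes given one. These 14 stood 1.22-fold to 1.34-fold higher.

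Both counts changed when single libraries were left out. Leaving out CCL19 replicate 3, edgeR called 17 of the genes higher (6.5% of all tested genes) and 2 lower (6.97%). Leaving out no-CCL19 replicate 3, it called 3 higher (1.98%) and 0 lower (2.34%), and 0 with any other library left out (0%). DESeq2 called 0 higher without CCL19 replicate 1 (0.989% of genes given an adjusted p) and 0 without no-CCL19 replicate 1 (1.65%), with 0 lower in both (1.38% and 1.25%). It called 1, Ctps, without CCL19 replicate 2 (2.78%) and 0 lower (2.24%). These fits gave an adjusted p to only 3841, 3517 and 3522 genes, against 9121 with all libraries. A gene not called there may have had no adjusted p, and how many of these genes had one was not counted. By contrast DESeq2 called 18 higher (9.89%) and 2 lower (8.83%) without CCL19 replicate 3. Dropping no-CCL19 replicate 2 gave 16 higher (7.32%) and 2 lower (4.9%), and dropping no-CCL19 replicate 3 gave 12 higher (7.98%) and 0 lower (6.25%). When every gene with a count was kept, edgeR called 15 higher (5.05%) and 1 lower (5.01%). A robust prior in edgeR gave 6 higher (2.29%) and 0 lower (2.25%). The authors' deposited table of changed genes lists 14 of the 35, each as higher with CCL19, and they are the 14 that DESeq2 called here. That table is of the same samples, and the submitters' notes name DESeq2 too, so the match is not independent.

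**Figure D1:**
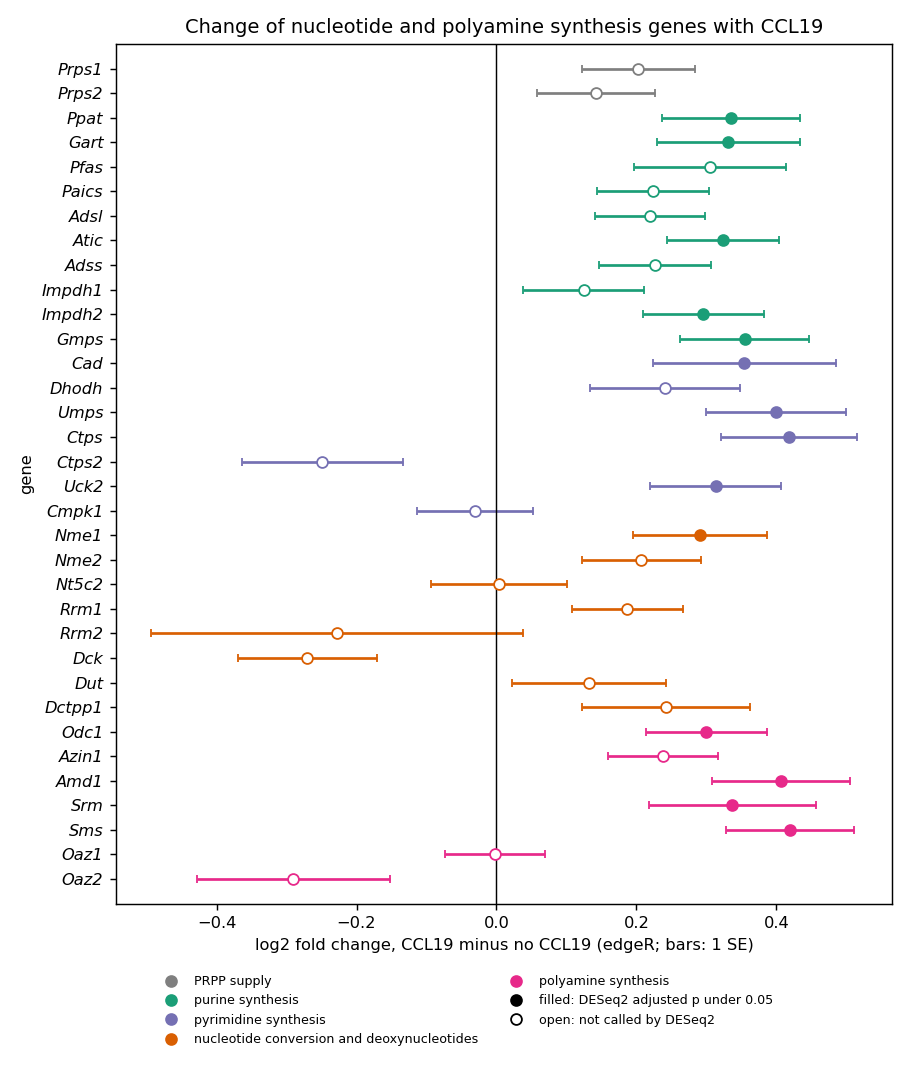
Log2 fold change with CCL19 (edgeR, horizontal axis, bars 1 SE) of the 34 tested genes, listed by role from PRPP supply to polyamine synthesis. Filled points are the 14 genes called by DESeq2, which lie between 0.29 and 0.42. Open points are not called, and edgeR called none.

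**Figure D2:**
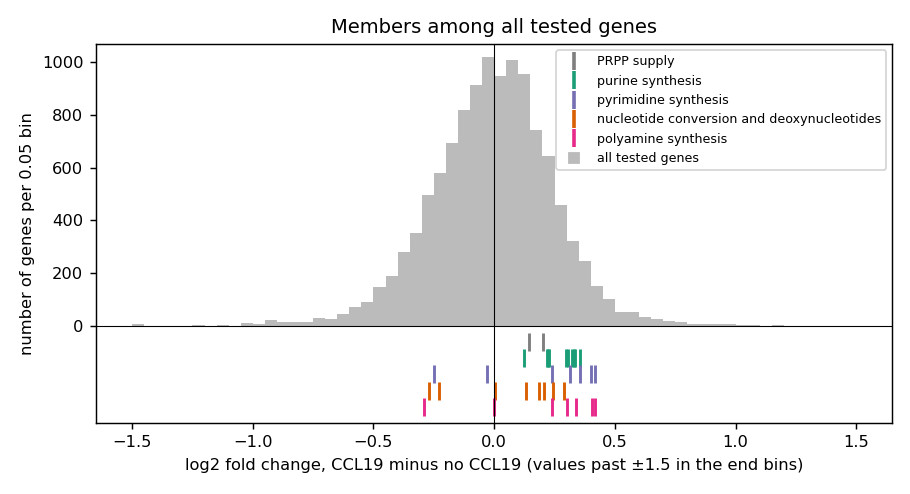
Number of tested genes per bin of log2 fold change (grey bars), with each of the 34 genes as a tick below, coloured by role. Ticks of the purine genes lie between 0.12 and 0.35, and the lowest tick, the antizyme Oaz2 at -0.29, is counted in the polyamine group.

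In the purine, pyrimidine and polyamine branches the medians lay close together, while single pyrimidine and polyamine genes spread further. Median log2 fold changes were 0.30 for the 10 purine synthesis genes, 0.31 for the 7 pyrimidine genes and 0.30 for the 7 polyamine genes, and 0.16 for the 8 tested genes of nucleotide conversion and deoxynucleotides. Differences between branches were not tested. All 10 purine genes lay above 0, from 0.12 to 0.35, whereas the pyrimidine genes ran from -0.25 to 0.42 and the polyamine genes from -0.29 to 0.42. The polyamine group counts regulators with the enzymes, namely the antizymes Oaz1 (-0.0025) and Oaz2 (-0.29) and the antizyme inhibitor Azin1 (0.24). Its enzymes Odc1, Srm, Amd1 and Sms ran from 0.30 to 0.42. The pyrimidine group likewise counts the salvage kinase Uck2 (0.31) and the kinase Cmpk1 (-0.03). DESeq2 called 5 purine, 4 pyrimidine, 4 polyamine and 1 conversion gene higher, against 7.14% of all genes given an adjusted p. The CCL19 and no-CCL19 libraries did not overlap for 7 purine, 3 pyrimidine, 4 polyamine and 1 conversion gene and for 1 gene of PRPP supply. That is 16 of 34 genes, all higher with CCL19, against 15.3% of tested genes apart and higher and 14.5% apart and lower.

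Summed over the 10 purine genes, the level was 1819, 1669 and 1522 CPM in CCL19 replicates 1 to 3 and 1266, 1481 and 1427 CPM without CCL19, so the groups did not overlap. The 7 polyamine genes summed to 1422, 1335 and 1222 CPM against 1028, 1184 and 1122 CPM, also apart. The 7 pyrimidine genes summed to 1114, 998 and 863 CPM against 736, 873 and 818 CPM, and CCL19 replicate 3 lay below no-CCL19 replicate 2. Ratios of the group means were 1.20, 1.19 and 1.23. A sum follows its most abundant genes. The polyamine sum includes the antizyme Oaz1, with a mean of 189 CPM in both groups.

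**Figure D3:**
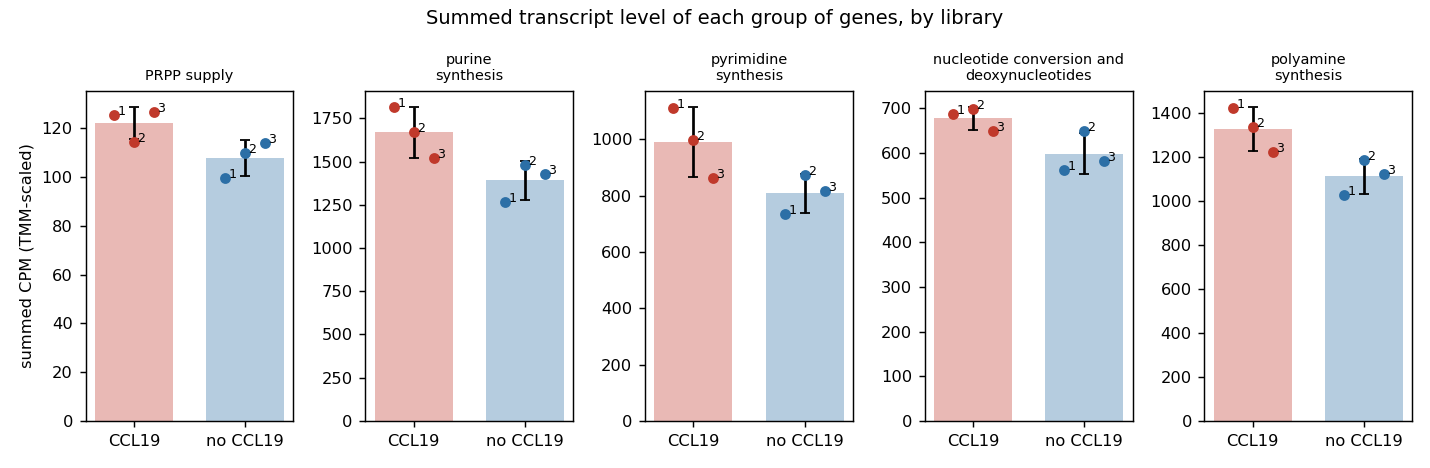
Summed CPM of the genes of each role, with bars at the mean of 3 libraries, error bars of 1 SD and 1 point per library marked with its replicate number. CCL19 replicate 1 (1819 CPM) is the highest and no-CCL19 replicate 1 (1266 CPM) the lowest for purine synthesis.

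A single library of each group often stood at the edge. CCL19 replicate 1 was the highest of the 6 libraries for 23 of the 34 genes, and no-CCL19 replicate 1 was the lowest for 24. Over all tested genes those libraries were highest and lowest for 26.4% and 27.1%. They also stood at the opposite edge, CCL19 replicate 1 lowest for 27.5% and no-CCL19 replicate 1 highest for 27%. Each other library was highest or lowest for 10.2% to 13.4%. All 35 genes summed to 5167, 4815 and 4384 CPM with CCL19 and to 3692, 4298 and 4064 CPM without. Myc stood at 1046, 936 and 781 CPM with CCL19 and at 570, 771 and 715 CPM without, so the 6 libraries had the same order for Myc as for the sum. Its log2 fold change was 0.43 ± 0.12 (edgeR adjusted p = 0.0606, DESeq2 adjusted p = 0.00902). Myc was picked as a textbook regulator, and how many other genes share that order was not counted. The naive T cell factor Tcf7 stood at 970, 1043 and 1232 CPM against 1593, 1265 and 1290 CPM, lowest where the sum was highest. The part of this library order in the results was not tested.

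**Figure D4:**
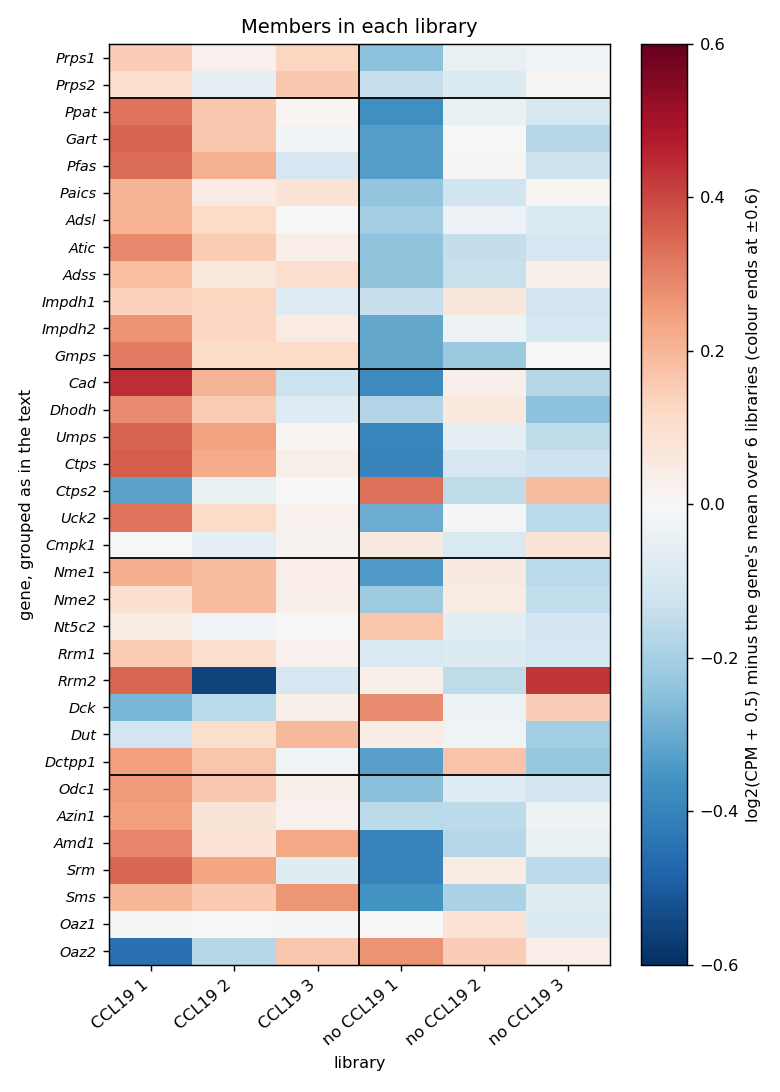
Log2(CPM + 0.5) of each of the 34 genes (rows) in each library (columns), less the gene's mean over the 6 libraries, with lines between roles and groups. Red is above the mean and blue below. Most rows are reddest in CCL19 replicate 1 and bluest in no-CCL19 replicate 1, and Ctps2, Dck and Oaz2 run the other way.

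PRPP, the activated sugar that purine and pyrimidine synthesis share, is made by Prps1 and Prps2. Prps1 stood at 76.2, 70.0 and 75.2 CPM with CCL19 and 57.9, 66.5 and 67.8 CPM without. Its log2 fold change was 0.20 ± 0.08 (SE; edgeR adjusted p = 0.128, DESeq2 adjusted p = 0.128). Its groups did not overlap. Prps2 overlapped and had 0.14 ± 0.08.

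In the purine pathway the committed step is taken by Ppat (NCBI Gene 231327, mm10 chromosome 5, 76913249 to 76951578), the amidotransferase that commits PRPP to purines. It stood at 139, 124 and 112 CPM with CCL19 and 85.6, 108 and 104 CPM without. The groups did not overlap, and the log2 fold change was 0.33 ± 0.10 (edgeR adjusted p = 0.0641, DESeq2 adjusted p = 0.025). Gart, a protein with 3 enzyme activities that follows it, stood at 289, 254 and 225 CPM against 181, 228 and 202 CPM. CCL19 replicate 3 lay below no-CCL19 replicate 2, and the log2 fold change was 0.33 ± 0.10 (edgeR adjusted p = 0.0722, DESeq2 adjusted p = 0.0241). Pfas, which adds nitrogen to the forming ring, also overlapped, with 0.31 ± 0.11 (edgeR adjusted p = 0.0992, DESeq2 adjusted p = 0.0538).

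The middle steps belong to Paics and Adsl. Paics (mm10 chromosome 5, 76951411 to 76967505), with carboxylase and ligase activity, stood at 149, 134 and 136 CPM with CCL19 and at 109.8, 119 and 130.3 CPM without. Adsl, the lyase that acts both in ring building and on the way to AMP, stood at 184, 173 and 159 CPM against 138, 156 and 151 CPM. Neither gene's groups overlapped, the log2 fold change was 0.22 ± 0.08 for each, and neither was called (edgeR adjusted p = 0.0996 and 0.1, DESeq2 adjusted p = 0.0744 and 0.0702). Paics and Ppat are neighbours transcribed in opposite directions whose deposited spans overlap by 168 bp, and no source used here gives the strand setting of the counting, so reads in the overlap are of uncertain origin.

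Atic (NCBI Gene 108147, mm10 chromosome 1, 71557156 to 71579403) closes the purine ring to give IMP. It stood at 136, 123 and 114 CPM with CCL19 and 93.8, 100.4 and 103 CPM without. The groups were apart, with a log2 fold change of 0.32 ± 0.08 (edgeR adjusted p = 0.0505, the lowest value of any gene, shared by 361 genes, DESeq2 adjusted p = 0.0102).

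From IMP one branch leads to AMP and the other to GMP. Adss, which takes IMP towards AMP, stood at 132, 122 and 126 CPM with CCL19 and 98.9, 107 and 119 CPM without (log2 fold change 0.23 ± 0.08, edgeR adjusted p = 0.0969, DESeq2 adjusted p = 0.0734). Impdh2, the inducible IMP dehydrogenase that starts the GMP branch, stood at 210.1, 190.0 and 180 CPM against 141, 170.1 and 162 CPM. Its log2 fold change was 0.30 ± 0.09 (edgeR adjusted p = 0.0636, DESeq2 adjusted p = 0.0238). Gmps, which completes GMP, stood at 78.5, 68.4 and 68.6 CPM against 51.1, 54.3 and 63.2 CPM (0.35 ± 0.09, edgeR adjusted p = 0.0532, DESeq2 adjusted p = 0.0158). For these 3 genes the groups were apart. Impdh1, the other IMP dehydrogenase, averaged 253 ± 21.0 CPM with CCL19 and 232 ± 18.4 CPM without (SD, n = 3). Its log2 fold change was 0.12 ± 0.09 (edgeR adjusted p = 0.367), or 0.25 when corrected for GC content and length, and its groups overlapped.

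Pyrimidine synthesis starts with Cad (NCBI Gene 69719, mm10 chromosome 5, 31054780 to 31078479), a multifunctional enzyme for the opening steps and the most abundant pyrimidine transcript in CPM. Cad stood at 485, 411 and 327 CPM with CCL19 and at 274, 365 and 317 CPM without. Its libraries spread widely and overlapped, with CCL19 replicate 3 below no-CCL19 replicate 2. The log2 fold change was 0.35 ± 0.13 (edgeR adjusted p = 0.106, DESeq2 adjusted p = 0.0441), and it ranged from 0.21 to 0.48 with 1 library left out. Dhodh, the mitochondrial dehydrogenase of the next step, overlapped as well and had 0.24 ± 0.11 (edgeR adjusted p = 0.165).

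Umps (NCBI Gene 22247, mm10 chromosome 16, 33955012 to 33967003) uses PRPP to complete UMP. It stood at 149, 138 and 118 CPM with CCL19 and 89.3, 113 and 105 CPM without. These groups were apart, at a log2 fold change of 0.40 ± 0.10 (edgeR adjusted p = 0.0505, DESeq2 adjusted p = 0.00875). Uck2, the kinase that salvages uridine and cytidine, stood at 159, 137 and 129 CPM against 103, 126 and 113 CPM. Its groups were apart too, with 0.31 ± 0.09 (edgeR adjusted p = 0.0671, DESeq2 adjusted p = 0.0268).

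The synthases that turn UTP into CTP differed in the sign of their change. Ctps (NCBI Gene 51797, mm10 chromosome 4, 120539868 to 120570276), the isoform known to be needed for lymphocyte proliferation, stood at 178, 161 and 142 CPM with CCL19 and 105, 129 and 127 CPM without, and its groups did not overlap. Its log2 fold change was 0.42 ± 0.10 (edgeR adjusted p = 0.0505, DESeq2 adjusted p = 0.00482). Ctps2, the other isoform, stood at 59.4, 72.1 and 74.4 CPM with CCL19 and 93.8, 67.0 and 84.6 CPM without. Those groups overlapped, with -0.25 ± 0.12 (edgeR adjusted p = 0.177, DESeq2 adjusted p = 0.146). The deposited span of Ctps2 overlaps that of the gene S100g by 2608 bp on the opposite strand, so reads there are of uncertain origin. The Ctps2 value was -0.14 without no-CCL19 replicate 1, -0.16 without CCL19 replicate 1 and -0.38 without no-CCL19 replicate 2, where DESeq2 called it lower (adjusted p = 0.0245). The log2 ratio of Ctps to Ctps2 within a library was 1.57, 1.16 and 0.93 with CCL19 and 0.16, 0.94 and 0.58 without. The values of CCL19 replicate 3 and no-CCL19 replicate 2 crossed by a small margin, and an exact 2-sided permutation test gave p = 0.2 (adjusted over 10 pairs, 0.429). Cmpk1, which phosphorylates UMP and CMP, averaged 36.7 ± 1.04 CPM with CCL19 and 37.5 ± 2.36 CPM without (SD, n = 3), with a log2 fold change of -0.03 ± 0.08.

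Genes that convert nucleotides or supply deoxynucleotides had a lower median. Nme1 and Nme2 encode nucleoside diphosphate kinases, which make triphosphates from diphosphates. Nme1 stood at 242, 237 and 214 CPM with CCL19 and 164, 216 and 186 CPM without. CCL19 replicate 3 lay just below no-CCL19 replicate 2, and the log2 fold change was 0.29 ± 0.10 (edgeR adjusted p = 0.0811, DESeq2 adjusted p = 0.0392). Nme2 had 0.21 ± 0.08 (edgeR adjusted p = 0.133, DESeq2 adjusted p = 0.0894). Their transcripts align over 472 bp at 80.9% identity, with a longest identical run of 29 bases.

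Ribonucleotide reductase makes deoxynucleotides from ribonucleotides and is built from a large subunit, Rrm1, and a small one, Rrm2, which is made mainly in S phase. Rrm1 stood at 42.0, 40.3 and 38.4 CPM with CCL19 and 35.4, 35.6 and 34.96 CPM without, apart between groups (log2 fold change 0.19 ± 0.08, edgeR adjusted p = 0.146, DESeq2 adjusted p = 0.171). Rrm2 was low, at 4.21, 2.03 and 2.97 CPM against 3.31, 2.84 and 4.51 CPM, and overlapped. Tk1, the thymidine kinase of S phase, had 6 to 12 counts per library with CCL19 and 8 to 14 without, and was not tested.

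Salvage of deoxycytidine runs through Dck, which stood at 46.4, 50.2 and 57.6 CPM with CCL19 and 68.7, 55.1 and 62.5 CPM without. The groups overlapped, with a log2 fold change of -0.27 ± 0.10 (edgeR adjusted p = 0.106, DESeq2 adjusted p = 0.0771). Without CCL19 replicate 3 the Dck value was -0.37, and edgeR called it lower (adjusted p = 0.0302). With all 6 libraries and no filter on low counts, edgeR also called Dck lower (-0.27, adjusted p = 0.0395). DESeq2 called Dck lower without CCL19 replicate 3 (adjusted p = 0.019) and without no-CCL19 replicate 2 (adjusted p = 0.0389). The remaining fits did not call it. Dut and Dctpp1, which clear dUTP and dCTP, had 0.13 ± 0.11 and 0.24 ± 0.12, and the nucleotidase Nt5c2 had 0.0036 ± 0.10, each with overlapping groups.

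Polyamine synthesis opens with Odc1 (NCBI Gene 18263, mm10 chromosome 12, 17544873 to 17551502), ornithine decarboxylase, which makes putrescine. Per kilobase of exon, Odc1 and Srm had the highest levels of the 35 genes, 209 and 205 CPM per kb without CCL19 and 257 and 259 with it, followed by Nme2 at 192 and 221. Odc1 stood at 610.1, 572 and 522 CPM with CCL19 and 429, 484 and 471 CPM without. The groups were apart, and the log2 fold change was 0.30 ± 0.09 (edgeR adjusted p = 0.0612, DESeq2 adjusted p = 0.0104).

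Amd1, the decarboxylase that supplies the aminopropyl donor for spermidine and spermine, stood at 54.9, 47.4 and 52.5 CPM with CCL19 and 33.8, 39.6 and 43.4 CPM without. These groups were apart, with a log2 fold change of 0.41 ± 0.10 (edgeR adjusted p = 0.0505, DESeq2 adjusted p = 0.00966). The Amd1 transcript is 99.6% identical to that of Amd2 over 3202 bp, so reads from one can be counted for the other and its level is uncertain. Amd2 itself was listed at 0.207 to 0.556 CPM and did not pass the filter.

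The aminopropyl transferases follow. Sms (NCBI Gene 20603, mm10 chromosome X, 157443954 to 157492046), which makes spermine, stood at 38.3, 37.2 and 40.2 CPM with CCL19 and 25.8, 29.1 and 31.6 CPM without. Its log2 fold change was 0.42 ± 0.09 (edgeR adjusted p = 0.0505, DESeq2 adjusted p = 0.00614), or 0.35 when corrected for GC content and length, with groups apart. Unlike most of the genes, it was highest in CCL19 replicate 3. Srm, which makes spermidine, stood at 389, 361 and 291 CPM against 232, 316 and 275 CPM. CCL19 replicate 3 lay below no-CCL19 replicate 2, and the log2 fold change was 0.34 ± 0.12 (edgeR adjusted p = 0.0963, DESeq2 adjusted p = 0.0402).

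The regulators of ornithine decarboxylase differed among themselves. Azin1, the antizyme inhibitor that frees the enzyme, stood at 128, 114 and 110.0 CPM with CCL19 and 96.5, 96.6 and 106 CPM without (0.24 ± 0.08, edgeR adjusted p = 0.0813, DESeq2 adjusted p = 0.0566), and its groups were apart. Oaz1, the main antizyme, which sends the enzyme to the proteasome, stood at 190, 188 and 188 CPM with CCL19 and 189, 199.8 and 178 CPM without. Its log2 fold change was -0.0025 ± 0.07. Oaz2, a less abundant antizyme, stood at 12.5, 15.2 and 19.4 CPM against 20.9, 19.2 and 17.7 CPM. Its groups overlapped, with -0.29 ± 0.14 (edgeR adjusted p = 0.189, DESeq2 adjusted p = 0.183). For Oaz2 the value was -0.16 without CCL19 replicate 1 and -0.47 without CCL19 replicate 3. In the latter case edgeR (adjusted p = 0.027) and DESeq2 (adjusted p = 0.0224) called it lower.

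Of 10 gene pairs compared within libraries, enzyme to antizyme was the pair whose groups did not overlap. The log2 ratio of Odc1 to Oaz1 was 1.684, 1.601 and 1.470 with CCL19 and 1.18, 1.27 and 1.40 without, a difference of 0.30. In the main fit Oaz1 hardly moved (log2 fold change -0.0025) and Odc1 had 0.30 with groups apart. The ratio thus restates the change of Odc1 and is not a separate result on enzyme and antizyme. The exact 2-sided permutation test gave p = 0.1, the smallest that 3 against 3 libraries allow, and 0.429 adjusted over the 10 pairs. Any pair with groups apart gets that smallest value, so such a pair among the 10 can arise with no difference. In a fit corrected for transcript GC content and length by an offset per library, Oaz1 itself had a log2 fold change of 0.10 and Odc1 0.32. The log2 ratio of Odc1 to Azin1 was 2.27 ± 0.05 with CCL19 and 2.21 ± 0.10 without (SD, n = 3). That of Impdh2 to Impdh1 was -0.39 ± 0.08 against -0.56 ± 0.09 and that of Paics to Ppat 0.16 ± 0.11 against 0.27 ± 0.12, with overlapping groups in each of these 3 pairs.

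**Figure D5:**
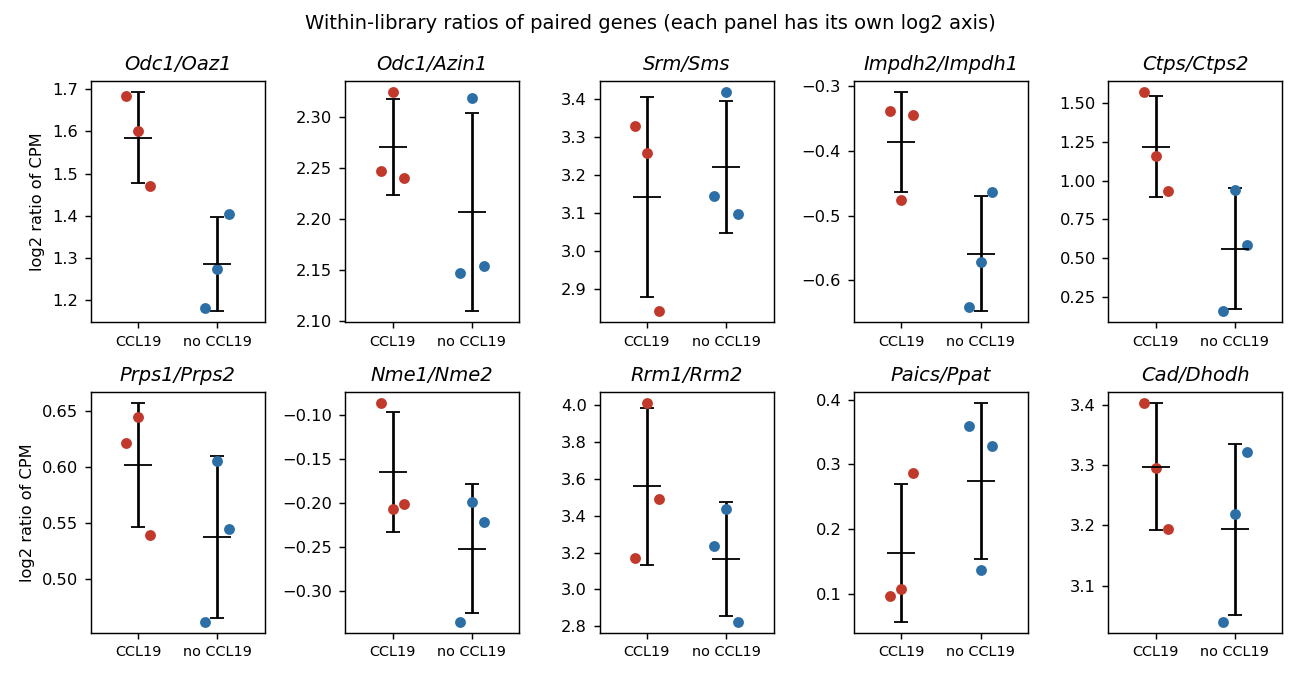
Log2 ratio of CPM of paired genes within each library, with CCL19 (red) and without (blue), the mean as a dash and error bars of 1 SD. Each panel has its own log2 axis. Odc1/Oaz1 lies between 1.47 and 1.68 with CCL19 and between 1.18 and 1.40 without, and the other 9 pairs overlap.

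The fold changes of all genes ran with base composition in these libraries, from a median of 0.12 in the lowest of 10 equal classes of transcript GC content to -0.16 in the highest. The 14 genes that DESeq2 called ranged from 39.0% (Gmps) to 59.8% GC (Srm), and the median GC of the tested genes of the pathway was 48.6% against 50.2% over all tested genes. In the fit corrected for GC content and length the median log2 fold change of the 34 genes was 0.27. It was 0.27 for the purine, 0.37 for the pyrimidine and 0.32 for the polyamine genes. In that fit edgeR called 0 of these genes (0% of all genes in the fit in either direction). Cad had 0.46 in that fit and Srm 0.48, whereas Gmps had 0.26 and Azin1 0.14.

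Genes around these pathways, from salvage, breakdown, thymidylate synthesis and methionine salvage, lay closer to the median of all genes. The difference was not tested, and it depends on lists drawn up with earlier results known. The salvage kinases Uck2 and Dck, for example, were counted with the genes above and not here. Of 78 such genes, 59 were tested, with a median log2 fold change of 0.06 and 32 above 0. edgeR called 0 higher and 0 lower. At an unadjusted p under 0.05 it had 15 higher and 5 lower of the 59, against 14.5% and 13% of all tested genes. DESeq2 called 6 higher and 1 lower of the 49 to which it gave an adjusted p, against 7.14% and 6.12% of all genes given one. By group, the medians were 0.07 for 21 purine salvage and breakdown genes, -0.14 for 7 pyrimidine ones, 0.06 for 15 deoxynucleotide genes and 0.04 for 16 polyamine and methionine salvage genes. The groups of libraries were apart for 12 genes higher and 7 lower, against 15.3% and 14.5% of all tested genes.

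Among these neighbours, Mtap, which recycles the by-product of spermidine and spermine synthesis into methionine and adenine, stood at 134, 121 and 109 CPM with CCL19 and 85.2, 95.1 and 96.2 CPM without. The groups were apart, with a log2 fold change of 0.40 ± 0.09 (edgeR adjusted p = 0.0505, DESeq2 adjusted p = 0.00365). Mat2a, which makes the S-adenosylmethionine that Amd1 uses, stood at 541, 494 and 488 CPM against 371, 434 and 433 CPM (0.30 ± 0.09, edgeR adjusted p = 0.0636, DESeq2 adjusted p = 0.0131). Eif5a2, a translation factor that carries a spermidine-derived modification, had 0.45 ± 0.11 (edgeR adjusted p = 0.0505, DESeq2 adjusted p = 0.0179).

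The polyamine transport ATPases differed in direction. Atp13a3, linked to polyamine uptake, stood at 239, 218 and 208 CPM with CCL19 and 164, 184 and 203 CPM without (0.28 ± 0.09, edgeR adjusted p = 0.0764, DESeq2 adjusted p = 0.0368). Atp13a2, which exports polyamines from lysosomes, stood at 46.2, 50.4 and 50.4 CPM against 72.0, 64.7 and 58.6 CPM, lower in all 3 CCL19 libraries (-0.41 ± 0.09, edgeR adjusted p = 0.0505, DESeq2 adjusted p = 0.00352). For deoxynucleotides, Dctd, which deaminates dCMP to dUMP, had 0.49 ± 0.12 and the folate enzyme Shmt1 had 0.39 ± 0.11 (edgeR adjusted p = 0.0505 and 0.0606, DESeq2 adjusted p = 0.0122 and 0.0153). Ak4, a mitochondrial adenylate kinase with 2.11 to 5.30 CPM, had 0.67 ± 0.21 (edgeR adjusted p = 0.0743) and no adjusted p from DESeq2. These 8 neighbours were named because their groups do not overlap and their p was smallest, so neither is a finding.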

How the data were processed

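Messenger RNA libraries (Illumina TruSeq kit, per the labels' protocols) were aligned to mm10 by STAR 2.5, and reads per gene were counted by featureCounts 1.5.0-p1, per the submitters' processing notes. In the deposited table each gene has its raw read count, not normalized, per the file headers. A further table from the authors names genes as higher or lower. The submitters' processing notes also name DESeq2 1.28.1. That table's threshold, the strand setting and the handling of reads with several matches are unknown here.

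Sample titles gave group and replicate. The whole table was fitted with edgeR 4.0.16 in R 4.3.3 (filterByExpr, TMM, quasi-likelihood F test, 2 groups, Benjamini-Hochberg adjustment over all 11666 tested genes, threshold 0.05), and the values of the 35 genes were read from it. DESeq2 1.42.0 (Wald test, independent filtering at 0.05) and limma 3.58.1 (voom) were alternatives, with those named in the closing section. Log2 fold changes come from edgeR. Each SE is the absolute log2 fold change divided by the square root of edgeR's F statistic. A pseudocount of 0.5 CPM was added in the ratios of paired genes. The authors' list and the DESeq2 calls here share most genes, 1158 of 1168. Transcript GC content, length and exon length came from GENCODE M21 (mm10), found for 98.1% of tested genes, and the offset used natural splines of 5 degrees of freedom. Scripts were tested on simulated counts. Plots used matplotlib 3.10.9 (Python 3.11.15).

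The 35 genes, their grouping and the neighbouring lists were chosen with earlier results of these data known. Every one of the 35 could be named. Values in each library are given where the groups did not overlap and for genes that a ratio or sequence turns on, and of the neighbouring genes the 8 of smallest edgeR p with groups apart are named. Gart, Dck and Oaz2 are also given in full, chosen after their values were seen. A further CD4 T cell marker is not reported here.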

Additional observations from a re-analysis of the deposited data

How the results depend on the processing

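The count of genes called higher, 0 by edgeR, was 14 by DESeq2, 15 by edgeR with no filter on low counts and 6 with a robust prior. With 1 library left out it ranged from 0 to 17 by edgeR and from 0 to 18 by DESeq2, where the values were 0, 1, 12, 16 and 18. The DESeq2 fits that called 0 or 1 gave an adjusted p to far fewer genes than the others. The DESeq2 fits with a library left out were chosen after seeing the data. The count called lower, 0, was 1 with no filter and ranged from 0 to 2 with a library left out. It stayed 0 in both directions with limma-voom, with DESeq2 size factors in edgeR, with a filter of 1 CPM in 3 libraries and with the GC and length offset. No gene of the whole table was called in those fits. The median log2 fold changes of the 34 genes and of the 5 groups of genes kept their sign and moved by less than the spread between replicates under all 20 alternatives, and that of the 34 genes ranged from 0.19 to 0.31. The number of paired-gene ratios with groups apart, 1, ranged from 1 to 5 with a library left out and was 1 with pseudocounts of 0.1 and 2.

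No pairing by replicate number was seen: same-numbered samples' deviations correlated at -0.16, 0.08 and -0.02, and 1 of 6 samples correlated best with its own number. With so few samples this check cannot exclude a pairing. With a replicate block edgeR called 0 genes higher and 0 lower, the median was 0.24, and no gene's call or direction changed.

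Of the 34 genes, 30 kept one direction under every alternative. Of the other 4, Nt5c2, Oaz1 and Cmpk1 lay close to 0 and Rrm2 had few counts. Nt5c2 (0.0036) was -8e-04 with no filter, -0.003 with the filter of 1 CPM and -0.0254 with the offset. It was 0.0963 without no-CCL19 replicate 1, -0.0186 without CCL19 replicate 1, -0.0357 without no-CCL19 replicate 2 and -0.0529 without no-CCL19 replicate 3 in edgeR, and -0.0171, -0.0287 and -0.0445 in DESeq2. Oaz1 (-0.0025) was 5e-04 by limma-voom, 0.1025 with the offset and 0.035 without no-CCL19 replicate 2 (-0.0476 without no-CCL19 replicate 3), and in DESeq2 0.0016 without CCL19 replicate 3 and 0.0408 without no-CCL19 replicate 2. Rrm2 (-0.23; -0.5052 without CCL19 replicate 1) was 0.0207 by edgeR and 0.0194 by DESeq2 without CCL19 replicate 2, and Cmpk1 (-0.03) was 0.0056 by DESeq2 without no-CCL19 replicate 3. The Srm to Sms ratio (-0.08; -0.1709 without CCL19 replicate 1) was 0.0728 without CCL19 replicate 3 and 0.0212 without no-CCL19 replicate 2. The cause was not tested. Depth limits Rrm2 and Tk1, which had few counts.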
